A study of Mus musculus with 13 samples.

Results

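The E2F transcription factors and the Rb pocket proteins were followed through 6 mouse medulloblastomas and normal tissue from 2 parts of the hindbrain. They comprise 10 genes of the 18193 with a symbol of their own on the array: E2f1 to E2f8, Rb1 and Rbl1. Members were all probe sets whose platform annotation gives 1 of these symbols, which made 22 of 45037. The tumours were primary medulloblastomas, cancers of the cerebellum, from mice with the genotype Ptch1(+/-). Ptch1 is the receptor that restrains hedgehog signalling, and the labels say that the tumours arose by its inactivation. The normal samples were wildtype: 3 samples were postnatal precursors of cerebellar granule neurons (P7 GNPC) and 4 were embryonic dorsal brainstem (E16.5 DBS), where P and E stand for postnatal and embryonic day. All tissue was untreated, and each sample came from its own mouse and was hybridised to 1 array. The labels give no strain, sex, tumour age or batch, and age goes with tissue in the normal samples. They do not say whether the precursor cells were purified. A tumour group with altered Ctnnb1 was not analysed here.

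E2F factors bind the promoters of genes needed for DNA replication and mitosis. In resting cells pocket proteins bind E2f1 to E2f5 and keep such genes silent, and cyclin-dependent kinases release the factors by phosphorylating the pocket protein. E2f1, E2f2 and E2f3 are the activators. E2f4, E2f5 and E2f6 are the canonical repressors: E2f4 and E2f5 work with the pocket proteins Rbl1 (p107) and Rbl2 (p130), and E2f6 with Polycomb proteins. E2f7 and E2f8 are atypical repressors that bind DNA without a dimerisation partner and limit the activators late in S phase. E2f1, E2f2, E2f7, E2f8 and Rbl1 are themselves known E2F targets that are made in cycling cells.

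Members with higher RNA in the tumours were found among both activators and repressors. RNA of E2f1, E2f2, E2f7, E2f8 and Rbl1 had its highest mean in tumours, an intermediate one in the P7 samples and its lowest in E16.5 brainstem. E2f3 was not called between tumours and precursors, where its means were close, and it was lower in brainstem. Rb1, E2f5 and E2f6 were not called in any comparison through the probe set that stands for each gene, and the only E2f4 probe set was dim in every sample. A gene was called at a limma adjusted p under 0.05 with a difference of at least 2-fold (1 on the log2 scale). All values below are MAS5 intensities as deposited, while differences are on the scale of log2(intensity + 18), which understates the change of dim genes. Probe sets of different genes are not compared in level, since their brightness depends on the probes.

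**Figure D1:**
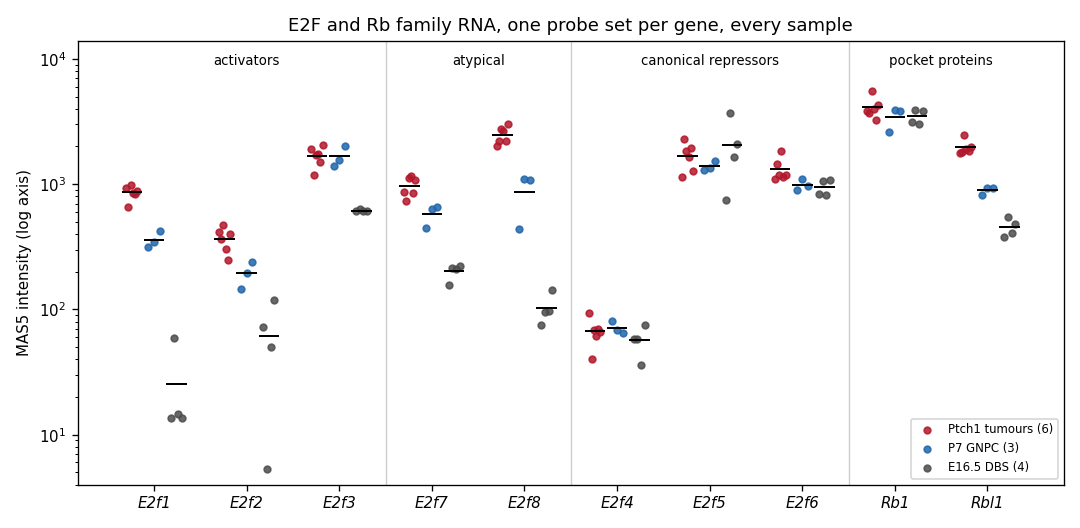
Deposited intensity (log axis) of the brightest probe set of each member, or the only one for E2f4, in 6 Ptch1 tumours, 3 P7 GNPC and 4 E16.5 DBS samples. Points are samples and bars are group means. For E2f1, E2f2, E2f7, E2f8 and Rbl1 every tumour lies above every GNPC sample and every GNPC sample above every DBS sample, while Rb1 spans 2618.8 to 5581.1 with all groups overlapping.

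In bulk tissue, fewer cells of a kind and less RNA per cell cannot be told apart, and the groups differed in their cells. Array medians lay between 91.3 and 117.5. Of 6 markers of granule neuron precursors, 5 passed an adjusted p of 0.05 upward in GNPC over DBS (beside 23.1% of all genes). Atoh1, which defines the precursors, was 1048 ± 214 (SD, n = 3) in GNPC, 8637 ± 1944 (SD, n = 6) in tumours and 102 ± 46.5 (SD, n = 4) in DBS. Over the 6 markers, however, the median log2 difference of tumours from GNPC was 0.09, and 1 was called higher (beside 6.59% of all genes). At an adjusted p under 0.05 and any fold, 2 of them were higher (beside 22.8% of all genes) and 1 was lower. Hoxa5, a gene of posterior hindbrain, was 7239 ± 1286 in DBS and 7.3 ± 1.77 in GNPC. The mean log2 level of 5 measured Purkinje cell markers was 12.6 to 12.9 in GNPC, 6.47 to 10.7 in tumours and 9.57 to 9.98 in DBS. Tumours were also below GNPC, without overlap, in the mean of the markers of postmitotic neurons (9.66 to 11.1 against 12.4 to 12.7), astrocytes (9.39 to 10.6 against 11.7 to 11.9), endothelium (7.23 to 8.17 against 8.89 to 9.09) and meninges (7.47 to 7.95 against 9.89 to 10.2). For oligodendrocytes, 4 of 5 measured markers were called lower in tumours than in GNPC (beside 14.2% of all genes), and the mean just overlapped. Of 6 measured microglia markers, 4 were called higher in tumours over GNPC (beside 6.59% of all genes). The mean of the 6 was 9.12 to 10.6 against 8.72 to 9.13, with overlap. The log2 ratio of 3' to 5' control signal, a sign of RNA quality, was 1.33 to 1.59 in tumours, 1.11 to 1.19 in GNPC and 1.23 to 2.43 in DBS, so it too separated tumours from GNPC. The mean of 9 proliferation markers was 11.8 to 12.2 in tumours, 10.4 to 10.8 in GNPC and 7.94 to 8.35 in DBS, in the same order as most members. All 9 were called higher in each of the 3 comparisons. Of all genes, 6.59% were called higher in tumours over GNPC, 15.5% in tumours over DBS and 8.73% in GNPC over DBS. Samples of 1 group also differed: the mean of 6 choroid plexus and ependyma markers was 10.53 in GNPC 2, against 7.93 and 7.485 in GNPC 1 and 3. It ranged from 6.42 to 9.85 in DBS. The part that the mix of cells or RNA quality plays in the members' differences was not tested.

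The start regions of 7 members were present in the RefSeq table used (build GRCm38.p6): E2f1, E2f2, E2f3, E2f6, E2f7, E2f8 and Rbl1. E2f4, E2f5 and Rb1 had no entry. Each window holds 300 bases, 250 before and 50 after a transcript start, and E2f2 and E2f3 have 2 windows each. Whether a window covers the main promoter of its gene was not checked. Both strands were searched for the E2F site in its 4 forms TTTCCCGC, TTTCGCGC, TTTGCCGC and TTTGGCGC. They were also searched for the CHR element, a hexamer of cell-cycle promoters, in the forms TTTGAA and TTCGAA. An E2F site lay in windows of 4 of the 7 members and in 4 of their 9 windows, against 2.26% of all 32851 windows. The windows were not matched for base composition. The CHR element lay in 3 of the 9 windows, against 19.23% of all. The regions below show the matches of 4 members that were higher in tumours than in brainstem, given 5′ to 3′ along the gene's strand up to the base before the start. Capitals mark the matches, which are letters and not shown to be bound.
Rbl1, chr2:157204535-157204784, minus strand: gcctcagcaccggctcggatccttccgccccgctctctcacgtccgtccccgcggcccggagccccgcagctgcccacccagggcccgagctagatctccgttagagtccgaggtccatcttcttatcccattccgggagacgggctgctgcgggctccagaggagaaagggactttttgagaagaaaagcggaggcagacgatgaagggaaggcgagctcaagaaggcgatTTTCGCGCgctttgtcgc
E2f7, chr10:110745189-110745438, plus strand: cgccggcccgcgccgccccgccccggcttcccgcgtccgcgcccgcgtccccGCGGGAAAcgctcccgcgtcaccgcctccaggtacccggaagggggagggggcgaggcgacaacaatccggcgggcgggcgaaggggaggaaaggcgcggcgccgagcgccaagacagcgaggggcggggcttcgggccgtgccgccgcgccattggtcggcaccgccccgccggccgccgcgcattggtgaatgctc
E2f3, chr13:29986064-29986313, minus strand: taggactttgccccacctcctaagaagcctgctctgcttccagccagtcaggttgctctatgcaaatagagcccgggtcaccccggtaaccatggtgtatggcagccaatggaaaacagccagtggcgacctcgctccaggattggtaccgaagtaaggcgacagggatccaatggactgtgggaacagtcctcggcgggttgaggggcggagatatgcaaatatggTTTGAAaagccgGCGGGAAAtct
E2f8, chr7:48881597-48881846, minus strand: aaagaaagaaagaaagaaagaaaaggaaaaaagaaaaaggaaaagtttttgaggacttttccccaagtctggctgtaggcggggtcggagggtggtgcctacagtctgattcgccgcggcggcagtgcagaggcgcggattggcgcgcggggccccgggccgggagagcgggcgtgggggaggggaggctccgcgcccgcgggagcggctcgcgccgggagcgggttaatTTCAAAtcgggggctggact
The Rbl1 site TTTCGCGC begins 18 bases before the start. The site in E2f3 begins 11 bases before it on the opposite strand, next to a CHR element that begins 23 bases before it. The E2f7 site, also on the opposite strand, begins 198 bases before the start, and the E2f8 window holds the CHR element 20 bases before the start. In E2f2 the site TTTGGCGC begins at base 40 of the transcript in 1 window (chr4:136172024-136172323, plus strand). The other window lies downstream of that one (chr4:136180532-136180831) and holds TTTGAA 31 bases before its start. The windows of E2f1 and E2f6 held neither, which says only that these letters are not in those windows. Since these windows may lie outside the main promoters, this does not show that the promoters of E2f1 or E2f6 lack the site. Other start regions of these genes were not searched.

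Of the activators, E2f1 showed the widest range. In tumours it ranged from 654.1 to 991.4 with a median of 870.2. It was 315.5, 342.4 and 423.5 in the GNPC samples and 13.7, 59.4, 14.5 and 13.7 in the DBS samples. No group overlapped another, and all 4 DBS values were below their array's median. The tumours were 2.32-fold higher than GNPC (means 859.7 ± 115 over 6 tumours and 360.5 ± 56.2 over 3 GNPC samples, ± SD; limma adjusted p = 0.00124). They were 21.8-fold higher than DBS (25.3 ± 22.7, SD, n = 4; adjusted p = 5.43e-10), and GNPC were 9.42-fold higher than DBS (adjusted p = 6.21e-07). Since 3 of the DBS values lie below the added 18, the size of both differences from DBS depends on it: on the log2 scale 4.45 for tumours became 5.33 with 1 added and 3.39 with 64, and 3.24 for GNPC became 4.08 and 2.27. The other E2f1 probe set past the filter, 1431875_a_at, read 218.4 to 422 in tumours, 280.9, 214 and 259.4 in GNPC, and 114.8, 16.8, 45.2 and 68.3 in DBS. By it tumours and GNPC overlapped (log2 difference 0.43, adjusted p = 0.406 in a fit of all probe sets), while both remained above DBS by 2.34 and 1.92. With the mean of the gene's probe sets past the filter the E2f1 difference from GNPC was 0.82 and no longer reached 2-fold. A further E2f1 probe set, 1447840_x_at, was below its array's median in all 13 samples. By it tumours exceeded GNPC by 0.73 and DBS by 0.93, without overlap and not called.

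E2f2, an activator that acts with E2f1 in driving S phase, ran in the same order. Its brighter probe set ranged from 249.4 to 474.4 in tumours with a median of 380.1. It read 146.3, 195.9 and 241 in GNPC and 72.1, 5.3, 50.4 and 117.9 in DBS. The groups did not overlap, though the lowest tumour and the highest GNPC sample were close. The difference from GNPC was 0.86 ± 0.40 (SE) on the log2 scale and was not called (adjusted p = 0.0928, 95% interval -0.01 to 1.72). It was called after scaling every array to 1 median (1.08, adjusted p = 0.0335) and after quantile normalization (1.03, adjusted p = 0.0451). Tumours were 5.68-fold higher than DBS (adjusted p = 2.41e-05) and GNPC 3.14-fold higher (adjusted p = 0.00684). The DBS values are dim, so these sizes depend on the added constant: with 1 and with 64 the log2 difference of 2.51 for tumours became 3.14 and 1.84, and that of 1.65 for GNPC became 2.22 and 1.11. The other probe set of E2f2 gave log2 differences of 0.52 from GNPC, not called, and of 2.40 from DBS, called.

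E2f3, which like E2f1 and E2f2 promotes entry into S phase, was not called between tumours and GNPC. Its intensity in tumours was 1182.5 to 2053.5 with a median of 1735.3. The GNPC samples gave 1406.4, 1569.4 and 2017.3, within the tumours' range. The 4 DBS samples were 611.8, 633.1, 609.5 and 610.6, below every other sample. The difference between tumours and GNPC was 0.01 ± 0.16 (SE) with a 95% interval from -0.33 to 0.36, and its sign changed in several of the alternatives. That interval lies below that of E2f1 (0.67 to 1.76), though the difference between the 2 genes was not tested. Both tissues stood above DBS, the tumours by 2.65-fold (adjusted p = 6.64e-07) and GNPC by 2.62-fold (adjusted p = 1.94e-05). A further E2f3 probe set was below its array's median in all 13 samples. The arrays did not separate the long and short E2f3 proteins, which start from different promoters.

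Among the repressors, the atypical pair had the same order of groups as E2f1 and E2f2. E2f8 ranged from 2025.9 to 3045.6 in tumours with a median of 2433.2. It was 436.4, 1097.2 and 1074.3 in GNPC and 75.7, 95.7, 97.8 and 142.1 in DBS. The lowest tumour was above the brightest GNPC sample, and GNPC 1 was well below the other GNPC samples. Tumours were 3.02-fold higher than GNPC (means 2485 ± 404 over 6 tumours and 869 ± 375 over 3 GNPC samples, ± SD; limma adjusted p = 1.6e-04). Without GNPC 1 the log2 difference fell from 1.59 to 1.17 and was still called. Tumours were 20.9-fold higher than DBS (adjusted p = 6.85e-10), and GNPC 6.93-fold higher (adjusted p = 2.87e-06). A further E2f8 probe set was dim in all samples, at most 29.6.

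E2f7, the closest relative of E2f8, showed smaller differences in the same direction. It ranged from 734 to 1165.8 in tumours with a median of 973. It read 444.7, 632 and 662.3 in GNPC and 157.5, 214.7, 211.8 and 221.5 in DBS, with no overlap between groups. The tumours' difference from GNPC was 0.72 ± 0.18 (SE), with an adjusted p of 0.0041 but short of 2-fold, so it was not called. E2f7 was 4.46-fold higher in tumours than in DBS (adjusted p = 2.51e-08) and 2.71-fold higher in GNPC than in DBS (adjusted p = 4.31e-05). It has a single probe set on the array.

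No canonical repressor was called by the probe set that stands for its gene. The only E2f4 probe set lay between 35.9 and 94 and below the array's median in all 13 samples. It was 40.2 to 94 in tumours, 81.4, 68.6 and 64.7 in GNPC, and 57.9, 58.2, 35.9 and 74.7 in DBS. With all genes kept its differences were -0.10 for tumours against GNPC (95% interval -0.60 to 0.40), 0.18 for tumours against DBS (-0.27 to 0.64) and 0.28 for GNPC against DBS (-0.26 to 0.83). A probe set this dim gives little information on the level of E2f4.

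E2f5, known for its role in the choroid plexus, was measured by 3 probe sets that did not agree on DBS. The brightest, 1447625_at, was 1137.8 to 2296.1 in tumours with a median of 1757. It was 1292.9, 1356 and 1544.5 in GNPC and 752.6, 3673, 1640.4 and 2094.9 in DBS. All groups overlapped, and DBS held both the lowest and the highest value of the 13 samples. Its differences were 0.23 for tumours against GNPC (95% interval -0.52 to 0.99), -0.10 for tumours against DBS (-0.78 to 0.59) and -0.33 for GNPC against DBS (-1.14 to 0.48). Without DBS 2 the last became 0.02 and the difference of tumours from DBS 0.25.

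The other E2f5 probe sets placed tumours highest. By 1460207_s_at tumours were 758.6 to 1147.8, GNPC 702.2, 604.6 and 702.7, and DBS 553.2, 660.3, 545.9 and 702.2. The tumours did not overlap either normal group, with differences of 0.47 from GNPC (adjusted p = 0.0299 in the fit of all probe sets) and 0.59 from DBS (adjusted p = 0.00197), both short of 2-fold. By 1417444_at the difference of tumours from DBS was 0.74 (adjusted p = 0.014), with overlap. The mean of E2f5's probe sets put tumours above DBS by 0.41 (limma adjusted p = 0.0422). In the DBS samples the log2 ratio of 3' to 5' control signal was 1.23, 2.43, 1.70 and 1.65 in the order above, lowest and highest in the same samples as 1447625_at. The mean log2 level of 6 choroid plexus and ependyma markers in the DBS samples was 9.85, 6.42, 7.68 and 9.32. In GNPC 1, 2 and 3 it was 7.93, 10.53 and 7.485, where 1447625_at read 1292.9, 1356 and 1544.5. The part of either in the E2f5 values was not tested.

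**Figure D2:**
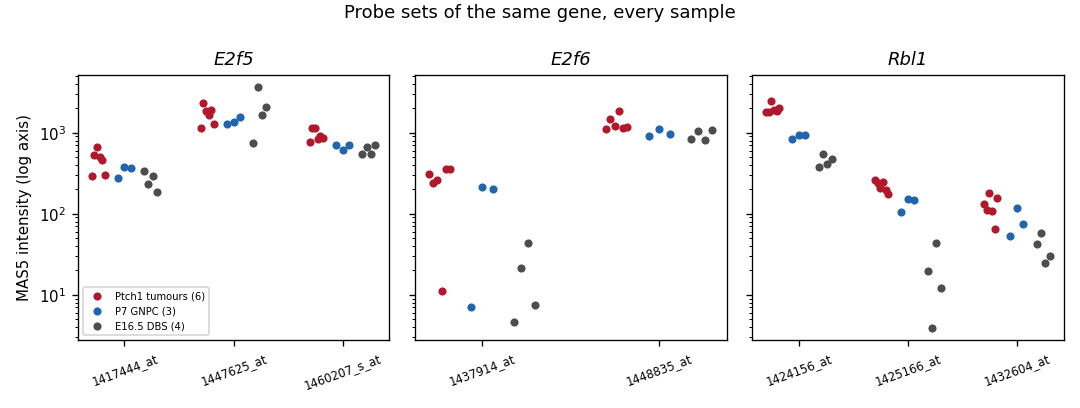
Deposited intensity (log axis) of every probe set past the filter for E2f5, E2f6 and Rbl1, by group, with 1 point per sample. The E2f5 probe set 1447625_at spreads from 752.6 to 3673 in DBS, the E2f6 probe set 1437914_at is near background in tumour 4 and GNPC 1, and the brightest Rbl1 probe sets both place tumours above GNPC and GNPC above DBS.

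E2f6, the Polycomb-associated repressor, was 1102.5 to 1856.1 in tumours with a median of 1190.1 by its brighter probe set. The GNPC samples gave 897.5, 1096.3 and 964, and the DBS samples 829.9, 1050.9, 820.3 and 1070.1. Every tumour exceeded every normal sample, by a small margin. The difference was 0.40 ± 0.16 (SE) from GNPC (adjusted p = 0.058) and 0.47 ± 0.15 (SE) from DBS (adjusted p = 0.0121), and neither was called. After scaling every array to 1 median the difference from GNPC was 0.64 (limma adjusted p = 0.00301), still short of 2-fold. After quantile normalization it was 0.42 (limma adjusted p = 0.05005). The dimmer probe set 1437914_at was 239.4 to 359.1 in 5 tumours and 11.1 in tumour 4. It was 7, 215.5 and 201.1 in GNPC and 4.6, 21.6, 43.8 and 7.4 in DBS. By it tumours exceeded DBS by 2.64 (adjusted p = 0.00667), although tumour 4 overlapped DBS. Averaging both probe sets gave 1.55, which was called, and 0.86 for GNPC against DBS in place of 0.07.

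Of the pocket proteins, Rbl1 followed the cycling members and Rb1 did not. Rbl1 was 1782.5 to 2470.5 in tumours with a median of 1877. It was 825.5, 930.1 and 926.5 in GNPC and 380.5, 543.1, 409.7 and 479.6 in DBS, without overlap. Tumours were 2.17-fold higher than GNPC (means 1969 ± 257 over 6 tumours and 894 ± 59.4 over 3 GNPC samples, ± SD; limma adjusted p = 1.46e-05) and 4.23-fold higher than DBS (453 ± 72.9, SD, n = 4; adjusted p = 2.03e-09). GNPC exceeded DBS by 0.96 (adjusted p = 1.16e-04), just short of 2-fold, and by 1.02 without GNPC 1 and 1.05 without DBS 2, when it was called. The probe set 1425166_at was 177.6 to 259.9 in tumours, 104.6, 153.8 and 148.4 in GNPC, and 19.9, 3.9, 43.7 and 12.1 in DBS. It gave a smaller difference of tumours from GNPC (0.64, adjusted p = 0.106) and larger ones from DBS (2.75 for tumours, 2.11 for GNPC). The third probe set, 1432604_at, read 64 to 181.2 in tumours, 53.9, 119.3 and 75.7 in GNPC, and 42, 58.2, 25 and 30.4 in DBS. By it tumours exceeded DBS by 1.32 (called), while GNPC overlapped both tumours (0.50, adjusted p = 0.258) and DBS (0.81, adjusted p = 0.0837). With the mean of the gene's probe sets past the filter the Rbl1 difference from GNPC was 0.75 and lost its call. A further Rbl1 probe set, 1454293_at, was below its array's median in all 13 samples. By it tumours differed from GNPC by -0.38 and from DBS by -0.04, not called.

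Rb1, the retinoblastoma protein itself, was 3228.5 to 5581.1 in tumours with a median of 3917.4. It was 2618.8, 3880.8 and 3815.1 in GNPC and 3115.2, 3939.7, 3014 and 3811.2 in DBS. The 3 groups overlapped. The differences were 0.26 for tumours against GNPC (95% interval -0.10 to 0.61, adjusted p = 0.213), 0.23 for tumours against DBS (-0.09 to 0.56, adjusted p = 0.182) and -0.03 for GNPC against DBS (-0.41 to 0.36, adjusted p = 0.92). These intervals leave out a 2-fold change in either direction. After scaling every array to 1 median, tumours exceeded GNPC by 0.50 (limma adjusted p = 0.0299), short of 2-fold. After quantile normalization the difference was 0.18 (limma adjusted p = 0.362). All these values concern RNA, and the arrays say nothing of Rb1 phosphorylation, by which its protein is mainly regulated. A further Rb1 probe set was at most 32.9 in any sample.

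**Figure D3:**
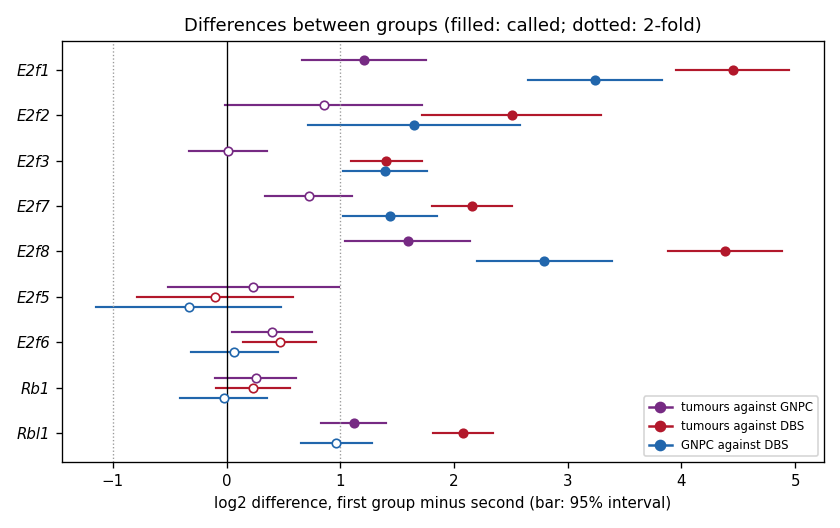
Log2 difference between groups for the 9 members past the filter, from the limma fit of all genes, with 95% intervals. Filled points were called, open points were not, and dotted lines mark 2-fold. E2f1 and E2f8 have the largest differences from DBS among members (4.45 and 4.38), and the intervals of E2f5 and Rb1 include 0 in all 3 comparisons.

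Counted over the 10 members with no filter on dim probe sets, 3 were called higher in tumours than in GNPC (E2f1, E2f8 and Rbl1), where 4.69% of all 18193 genes were. Against DBS 6 of 10 were called higher in tumours, beside 10.9% of all genes, and 5 of 10 in GNPC, beside 6.31%. The same members were called among the 9 that passed the filter, where the shares of 12270 genes called higher were 6.59%, 15.5% and 8.73%. E2f1, E2f2 and E2f8 passed the filter through tumours and GNPC with at most 1 DBS array, so the filtered counts are not independent of the differences. No member was called lower by limma in any comparison, and none was lower at an unadjusted p under 0.05, while 14.2%, 20.9% and 9.68% of genes were called lower. At an adjusted p under 0.05 and any fold, 4, 7 and 6 of 9 members were higher, beside 22.8%, 34.9% and 23.1% of genes. The higher group did not overlap the lower one in 6, 7 and 6 members, beside 21%, 27.2% and 28.6% of genes. Of the 22 member probe sets, 3, 11 and 8 were called higher, beside 3.48%, 10% and 6.06% of all probe sets. The tumour comparisons share the tumour arrays, and each normal group serves in 2 comparisons.

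By class, the median log2 difference of the 3 activators was 0.86 for tumours against GNPC, 2.51 for tumours against DBS and 1.65 for GNPC against DBS. For E2f7 and E2f8 the medians were 1.16, 3.27 and 2.11. For the canonical repressors E2f5 and E2f6 they were 0.32, 0.18 and -0.13. Over all genes the medians were -0.03, 0.00 and 0.04. Against brainstem the repressors were split: E2f7 and E2f8 were called higher in tumours and in GNPC, and E2f4, E2f5 and E2f6 were not called by the probe set that stands for each. After scaling every array to 1 median, the median gene moved from -0.03 to 0.21 between tumours and GNPC, and E2f2 joined E2f1, E2f8 and Rbl1 among the calls.

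**Figure D4:**
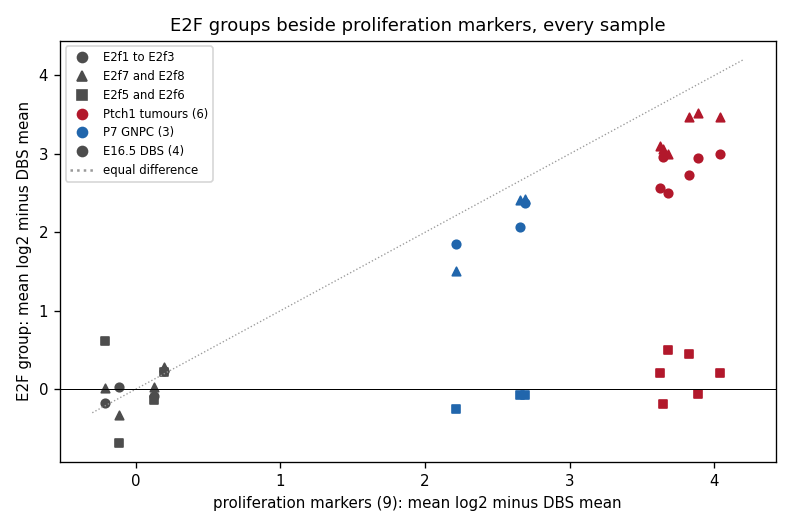
Mean log2 level of each E2F class in every sample, as a difference from the DBS mean, against the same for 9 proliferation markers. The dotted line marks equal differences. E2f1 to E2f3 and E2f7 with E2f8 lie far above DBS in both tumours and GNPC, and below the line in every sample of both groups. E2f5 with E2f6 lie near 0 and far below the line in every tumour and every GNPC sample.

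Most members differed between groups by less than the proliferation markers, which dividing cells express; the exceptions were E2f8 in all 3 comparisons and E2f1 in both comparisons with DBS by its brightest probe set. By 1431875_a_at the E2f1 differences from DBS (2.34 and 1.92) were below the markers' medians, and with the mean of probe sets that of tumours (3.397) was below and that of GNPC (2.58) just above them. The markers' median differences were 1.29 for tumours against GNPC, 3.77 for tumours against DBS and 2.53 for GNPC against DBS. Taken relative to the markers' mean in the same sample, E2f1 was at -2.17 ± 0.18 (SD, n = 6) on the log2 scale in tumours and -2.12 ± 0.175 (SD, n = 3) in GNPC. Rbl1 was at -0.99 ± 0.07 in tumours and -0.84 ± 0.17 in GNPC. The ranges of both genes overlapped between these groups on this relative scale. E2f8 was at -0.66 ± 0.125 in tumours and -0.99 ± 0.47 in GNPC, with overlap. E2f3 was at -1.22 ± 0.26 in tumours and 0.03 ± 0.18 in GNPC, and E2f7 at -2.01 ± 0.17 and -1.47 ± 0.04, without overlap. Rb1 was at 3.60 ± 0.30 in DBS, 1.06 ± 0.06 in GNPC and 0.05 ± 0.13 in tumours on this scale. Its own mean log2 level was 11.8, 11.7 and 12.0 in these groups, while the markers' mean was 8.15, 10.7 and 11.9. The fall of Rb1 thus lies in the markers that were subtracted, as does that of E2f3, whose own difference between tumours and GNPC was 0.01. Any gene that changes less than the markers falls in this way. These relative values are descriptions, since a probe set's own brightness sets the position of each gene.

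Over the 13 arrays Pearson's r of log2 values was 0.99 between E2f7 and E2f8, 0.97 between E2f1 and E2f8 and 0.97 between E2f8 and Rbl1; that of E2f2 with E2f7 was 0.87. Within the 6 tumours it was 0.84 for E2f7 and E2f8, 0.36 for E2f1 and E2f8, 0.66 for E2f8 and Rbl1, and 0.24 for E2f2 and E2f7. The arrays share the 3 groups, so the values over 13 arrays include the differences between groups. Among all other genes, E2f8 was most like Kif11, Arhgap11a and Smc4 (r = 0.998, 0.997 and 0.997). E2f7 was most like Nde1, Cks2 and E2f8 (0.994, 0.992 and 0.990), and Rbl1 most like Lyar, Dna2 and Cdca4 (0.995, 0.995 and 0.994). E2f1 was nearest to Cnot6, Fam83d and Dlgap5 (0.990, 0.990 and 0.989) and E2f2 to Nemp1, Mdc1 and Gtse1 (0.956, 0.955 and 0.952). E2f3 was nearest to Mndal, Klf3 and Adamts6 (0.979, 0.978 and 0.975). For E2f6 the nearest was Cc2d2a (0.946), for Rb1 Osbpl11 (0.894) and for E2f5 Ppm1b (0.812).

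Within the 6 tumours the members varied about as much as other genes. The SD of log2 values was 0.20 for E2f1, 0.23 for E2f8 and 0.17 for Rbl1, against a median of 0.27 over all genes. E2f5 varied most among members, with an SD of 0.38. Tumour 3 had the highest E2f1, E2f2, Rb1 and Rbl1 by the brightest probe set, while tumour 2 had the lowest E2f1, E2f3 and E2f7. Tumour 3 also had the highest mean of the proliferation markers (12.2), and tumour 2 the highest mean of the Purkinje markers (10.7).

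The counts in this and the next paragraphs stand beside 6.59%, 15.5% and 8.73% of all genes called higher in tumours over GNPC, tumours over DBS and GNPC over DBS. Of 10 dimerisation partners, pocket and MuvB subunits, 3 were called higher in tumours than in GNPC, 6 in tumours than in DBS and 2 in GNPC than in DBS, with no gene lower. Tfdp1, the main dimerisation partner of E2f1 to E2f6, was 4133 ± 660 (SD, n = 6) in tumours, 2202 ± 240 in GNPC and 1276 ± 87.4 in DBS. Its log2 difference was 0.89 from GNPC, short of 2-fold, and 1.67 from DBS. Tfdp2, the other partner, resembled E2f3: 2055 ± 205 in tumours and 2094 ± 207 in GNPC, and 583 ± 73.6 in DBS. Lin9 and Lin54, MuvB subunits that bind cell-cycle promoters, were higher in tumours than in GNPC by 1.05 and 1.11. Mybl2 (B-Myb), which joins MuvB in S phase, was higher by 1.02. Rbl2, the third pocket protein, differed by 0.10 from GNPC and 0.03 from DBS and was not called (adjusted p = 0.57 and 0.869).

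Of 8 cyclins and kinases that phosphorylate pocket proteins, 3 were called higher than in GNPC (Cdk6, Ccnd1 and Ccne2) and 7 higher than in DBS. Ccne2 stood at 1418 ± 432 in tumours, 561 ± 128 in GNPC and 246 ± 35.3 in DBS. Ccnd2, Cdk4 and Cdk2 also passed an adjusted p of 0.05 against GNPC, short of 2-fold. Ccnd3 and Ccne1 did not, with differences of 0.46 and 0.29 (adjusted p = 0.175 and 0.203). Against DBS the one not called was Ccne1, the other E-type cyclin (0.16, adjusted p = 0.4). Of 6 measured inhibitors of these kinases, 2 were called higher in tumours than in GNPC, Cdkn2b and Cdkn1b. Cdkn1c was called lower (adjusted p = 0.0289), with overlap between the groups, where 14.2% of all genes were called lower. Cdkn2b was 556 ± 269 in tumours and 59.1 ± 23.6 in GNPC, Cdkn1b 2665 ± 459 and 976 ± 439, and Cdkn1c 919 ± 973 and 1854 ± 124. Cdkn2a was not measured past the filter.

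Genes that E2F factors are known to regulate were mostly higher in tumours. Of 37 measured S-phase and nucleotide genes, 29 were called higher than in GNPC, 36 higher than in DBS, and 26 higher in GNPC than in DBS, with none lower and medians of 1.34, 3.07 and 1.70. The examples with the largest differences from GNPC were the replication genes Mcm2 (2.09) and Cdc6 (1.90), the checkpoint kinase Chek1 (1.78) and the chromatin remodeller Hells (1.75). Of 21 measured genes of G2 and mitosis, 19, 21 and 21 were called higher, with medians of 1.16, 3.77 and 2.63. That list and the proliferation markers share genes. Of 5 measured apoptosis genes that E2f1 can regulate, 1 was called higher in tumours than in GNPC: Pmaip1, at 195 ± 84.9 against 86.1 ± 39.6 (adjusted p = 0.0272). It (1.22) and Bcl2l11 (1.25) were called higher in tumours than in DBS. Of 7 measured Polycomb partners of E2f6, 2 were higher in tumours than in GNPC at an adjusted p under 0.05, both short of 2-fold, a share of 7 near the 22.8% of all genes, and Ring1 was called higher than in DBS (1.06). Of the germline genes that E2f6 represses, only Stag3 was measured past the filter; its log2 difference was -1.49 for tumours against DBS and -1.29 for GNPC against DBS, both called. Of 8 chromatin corepressors of the pocket proteins, 3 were higher and 1 lower in tumours than in GNPC at an adjusted p under 0.05, all short of 2-fold, again beside 22.8% of all genes higher, and Hdac1 (1.44) and Sin3a (1.14) were higher in tumours than in DBS.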

How the data were processed

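Total RNA of 13 mouse samples was labelled by a 2-cycle protocol and hybridised to Affymetrix arrays with 45101 probe sets, per the labels' protocols. The deposited values are linear intensities; MAS5 is named in the submitters' processing notes, and the values show that the authors scaled each array to a mean of 500 after trimming 2% at each end. Each sample was put in its group by its source name. Replicate numbers were given by accession and so pair no samples; no 2 arrays were identical.

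For genes, probe sets with 1 symbol above their array's median on at least 3 of 13 arrays were kept, and the one with the highest mean stood for the gene (12270 genes; 9 members, 16 of 22 member probe sets). Values were tested as log2(intensity + 18), 18 being the 20th percentile, in 1 limma 3.58.1 model (R 4.3.3) with a mean per group and an intensity trend (10 residual degrees of freedom). P-values were Benjamini-Hochberg adjusted over all genes. The same model was fitted to all 45037 probe sets that are not controls and to all 18193 genes with no filter. The fit was tested on simulated data. All members are named; of pathway lists longer than 10, up to 4 called genes with the largest differences could be named, and genes most like a member are the top 3 by Pearson's r. Members and lists were chosen with earlier results of these data known. No batch is labelled. Symbols came from the platform annotation and 0 changed against a current table. Motifs were searched as exact words in RefSeq start regions (GRCm38.p6).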

Additional observations from a re-analysis of the deposited data

Results flagged for a closer look

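Of 32 groups of 4 or 6 samples tested (tumours and DBS, for each member probe set past the filter), 5 held a sample whose gap to the nearest other was large against the group's range, where chance gives about 1 in 20. DBS 2 stood apart for E2f1 (59.4 against 13.7 to 14.5 in the other DBS samples) and for E2f3 (633.1 against 609.5 to 611.8), the latter a gap of a few percent in a tight group. DBS 1 was low for E2f7 (157.5 against 211.8 to 221.5). Tumour 4 was low for the E2f6 probe set 1437914_at (11.1 against 239.4 to 359.1), while by the other E2f6 probe set it was the highest tumour (1856.1). Tumour 3 was high for Rbl1 (2470.5 against 1782.5 to 1996.7). DBS 2 also had the highest ratio of 3' to 5' control signal of the 13 arrays (2.43 on the log2 scale), and its part in these values was not tested.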

How the results depend on the processing

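No call of a member reversed in any alternative, and no call was lost when any 1 sample was left out. Of 594 values of single members under the alternatives, 568 kept their direction and their side of the threshold, 2 lost a call, 6 gained one and 18 changed sign, all of the last without a call. With the mean of probe sets only 1 member (E2f8) was called between tumours and GNPC in place of 3, since E2f1 and Rbl1 fell to 0.82 and 0.75. Leaving out 1 sample gave 3 members in every refit of that comparison, 6 of tumours against DBS, and 5 to 6 of GNPC against DBS; over all genes the counts were 2243 to 2658, 4362 to 4548 and 2000 to 2304. The gained calls were E2f2 between tumours and GNPC by both scalings (1.08 and 1.03), E2f6 between tumours and DBS by the mean of probe sets (1.55), and Rbl1 between GNPC and DBS by the mean (1.29) and without GNPC 1 or DBS 2 (1.02 and 1.05).

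The values that changed sign were as follows. E2f3 between tumours and GNPC was -0.0062 with quantile normalization and -0.10 to 0.16 with 1 sample left out. E2f5 against DBS was 0.0274 in tumours after scaling to 1 median, 0.41 in tumours (limma adjusted p = 0.0422) and 0.0532 in GNPC with the mean of probe sets, and -0.50 to 0.25 and -0.73 to 0.0199 with 1 sample left out. E2f6 between GNPC and DBS was -0.0479 after scaling to 1 median and -0.0081 to 0.13 with 1 sample left out. Rb1 between GNPC and DBS was 0.0314 with quantile normalization and -0.12 to 0.16 with 1 sample left out. The cause was not tested.

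Scaling arrays to the same median moved the share of called genes that were higher from 31.7% to 48.8% between tumours and GNPC (1309 higher, 1375 lower) and from 47.4% to 37.9% between GNPC and DBS; quantile normalization gave 37.6% and 42.9%. No paired analysis was possible because replicate numbers follow accession order. The number of arrays and, for E2f4 and for E2f1 and E2f2 in DBS, signal near background limit what can be seen.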
